A study of Homo sapiens with 15 samples.

Results

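Untargeted JQ1-FCPF was compared with the untreated control in K562 cells. The libraries were chosen by their labels, 3 with genotype Cas9FCPF-sgRNA and treatment JQ1-FCPF against 3 with genotype WT and treatment NT, so 6 of the 15 libraries of the series enter the comparison, and all genes were measured. The genotype label was read as Cas9FCPF without sgRNA, as the design text of the series lists this group. K562 is an established human leukaemia line that grows in suspension and has erythroid features. Cells of the JQ1-FCPF group had been transfected with Cas9FCPF, a Cas9 protein carrying the FCPF tag, without sgRNA, and received JQ1-FCPF at 1 µM, with RNA taken at 1 h. The control cells are labelled as wild type and not treated, also at 1 h, whereas the design text names DMSO as the control. The labels leave unsaid whether the control cells were also transfected, so compound, Cas9FCPF and transfection cannot be told apart in this comparison. The same holds for every other comparison with these control libraries. Another group, labelled JQ1 without sgRNA (Cas9FCPF, JQ1 at 1 µM, 1 h, 3 libraries), is the matched group for the unconjugated compound. The series title speaks of dCas9 and the labels of Cas9, and the sgRNA is given without its target. No source says that replicates were separate cultures, so p-values measure the spread between these libraries, which may be technical.

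BET proteins such as BRD2 and BRD3 bind acetylated histones through their bromodomains and bring the elongation factor P-TEFb to genes. JQ1 fills the bromodomain pocket and displaces them, and in many cells this changes genes with short-lived transcripts, among them transcription factors, feedback inhibitors and histone genes. JQ1-FCPF joins JQ1 to the partner of the FCPF tag, so that Cas9FCPF can carry the compound to a site chosen by an sgRNA. Without sgRNA there is no such site.

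The labelled cell line was checked against its markers. All 12 K562 markers were expressed and summed to 2550 to 2710 CPM (read counts scaled to the library's total) in the control and 2500 to 2580 CPM in JQ1-FCPF. Fetal globin HBG2 was at 697, 762 and 626 CPM in the control and 636, 781 and 744 CPM in JQ1-FCPF, and the erythroid factor GATA1 at 257, 289 and 263 against 249, 283 and 284 CPM. Neither gene separated the groups. Markers of myeloid and megakaryocytic cells summed to 63.1 to 74.2 CPM in the control and 69.4 to 79.4 CPM in JQ1-FCPF, with 4 of 14 high enough to be tested and MPO at 0 throughout. B cell markers stayed under 5 CPM in all 6 libraries, with MS4A1 at 0. T and NK cell markers summed to 29.1 to 35.3 against 28.8 to 35.7 CPM, epithelial markers to 1210 to 1450 against 1270 to 1380 CPM and fibroblast markers, mostly VIM, to 1080 to 1320 against 1130 to 1160 CPM. In bulk RNA, fewer cells of a type and less RNA per cell cannot be told apart.

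Library totals ranged from 13237263 to 17544518 counts in these 6 libraries. On the first principal component of all 15 libraries, with 29% of the variance, JQ1-FCPF without sgRNA lay between -21.8 and -18.4, the control between -24.7 and -20.9, and JQ1 without sgRNA between 16.8 and 22.7. JQ1-FCPF replicate 1 stood apart from replicates 2 and 3 in its share of mitochondrial transcripts, at 2.79% against 5.22% and 5.7%. The control held a like spread, at 5.98%, 3.24% and 3.67%, and the mean shares did not separate the groups (4.57% ± 1.56 against 4.3% ± 1.47, SD, n = 3; two-sided exact permutation test, p = 1, where 0.1 is the smallest p that 3 against 3 allows). Where noted below, results are also given without replicate 1, or as the range over fits that each leave out 1 library. Among the groups with sgRNA, JQ1-FCPF replicate 2 lay at 32.2 on the first component, with its other 2 libraries at -16.7 and -14.8, and JQ1 replicate 1 had a mitochondrial share of 7.46%. In the comparisons among the groups without sgRNA they enter through the shared estimate of spread, the filter on low counts and the scaling. A fit without them is given where it changes a call against control. They enter directly where a group with sgRNA is compared or used to choose the panel of JQ1-responsive genes described below.

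JQ1-FCPF without sgRNA changed 1 gene past the test. SKIL fell 1.99-fold, and 0 genes rose. SKIL encodes SnoN, a co-repressor that binds SMAD proteins and holds back TGF-beta signalling, and its own transcription is known to be raised by that pathway. Of 15517 genes tested, SKIL was the 1 called by edgeR's quasi-likelihood test at a Benjamini-Hochberg adjusted p under 0.05, which is 0.00644% of the genes. At an unadjusted p under 0.05 there were 285 genes (1.84%), 142 higher (0.915%) and 143 lower (0.922%). This is less than the share of 0.05 that such a threshold lets through when no gene changes, so these genes are not read as changed. So low a count does not show that they are unchanged either, since it moved with the libraries fitted. The count of 285 was 987 without JQ1-FCPF replicate 1 and 152 without replicate 2, whereas the count of called genes was 1 when any single library was left out. With the 2 groups alone 510 genes had such a p and 2 were called. Without the 2 libraries of the sgRNA groups that stand apart these counts were 809 and 4. The groups did not overlap for 613 genes in which JQ1-FCPF was higher (3.95%) and 544 in which it was lower (3.51%).

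**Figure D1:**
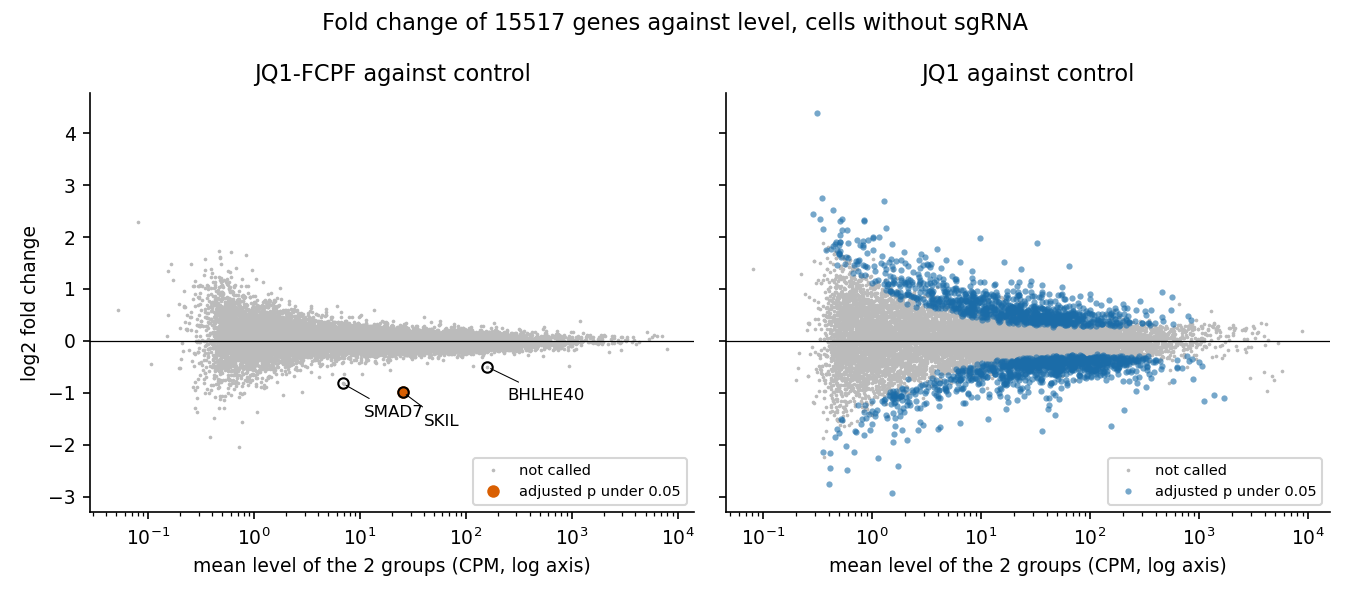
Log2 fold change of each of the 15517 tested genes (dots) against its mean level in the 2 groups (CPM, log axis), for JQ1-FCPF against control on the left and JQ1 against control on the right, all without sgRNA. Coloured dots have an adjusted p under 0.05: SKIL alone on the left, 1908 genes on the right. The open circles on the left mark SMAD7, SKIL and BHLHE40.

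The data bounded most genes closely. The 95% interval of the fold change lay within 2-fold of the control for 13204 of 15517 genes (85.1%). Among the 10442 genes with a mean of at least 5 CPM, it lay within 2-fold for 10432 (99.9%) and within 1.5-fold for 9883 (94.6%). The median size of the log2 change over all genes was 0.09 here and 0.22 for JQ1 against the same control libraries.

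SKIL lies on chromosome 3, positions 170357678 to 170396835 of GRCh38, on the plus strand (ENSG00000136603). Its promoter is shown because it is the 1 called gene. The window runs from 250 bases before to 50 bases after the RefSeq start (GRCh38.p14, chr3:170357465-170357764, plus strand). Capitals mark the match to CAGAC, the short SMAD-type motif, searched on both strands, here read as GTCTG on the plus strand.
SKIL: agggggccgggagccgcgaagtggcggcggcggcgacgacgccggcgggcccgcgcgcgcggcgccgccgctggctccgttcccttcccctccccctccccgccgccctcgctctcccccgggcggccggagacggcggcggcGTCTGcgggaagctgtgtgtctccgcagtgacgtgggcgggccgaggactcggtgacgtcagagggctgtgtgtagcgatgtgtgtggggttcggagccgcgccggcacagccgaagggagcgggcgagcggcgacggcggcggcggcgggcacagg
The same letters occur in 15894 of 35116 RefSeq promoter windows (45.3%), and in 17 of the 24 windows (70.8%) of the 13 genes of the TGF-beta list that have one. A match describes the letters and is not a binding site.

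SKIL stood at 33.9, 33.5 and 34.1 CPM in the control and at 17.5, 17.8 and 15.6 CPM in JQ1-FCPF. The groups did not overlap, and the control libraries lay close together. The change was 1.99-fold (95% interval 1.67 to 2.37; log2 fold change -0.99 ± 0.12 SE; edgeR adjusted p = 0.000785). All 14 alternative settings kept the call, with log2 fold changes between -1.03 and -0.94 and adjusted p between 3.09e-10 and 0.0236. Without JQ1-FCPF replicate 1 the edgeR adjusted p was 0.0113. With JQ1 without sgRNA, SKIL stood at 15.9, 16 and 16.6 CPM, and with JQ1-FCPF and sgRNA at 15, 20.9 and 14.6 CPM. All 9 of these libraries lay below all 3 control libraries. All 9 are also from cells with Cas9FCPF, whose part in the fall cannot be told apart from that of the compounds. Since JQ1-FCPF and JQ1 are read against the same control libraries, the direct comparison of the 2 compounds is the one that bears on whether they differ. It gave a log2 difference of 0.07 for SKIL (95% interval -0.19 to 0.33, edgeR adjusted p = 0.769).

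**Figure D2:**
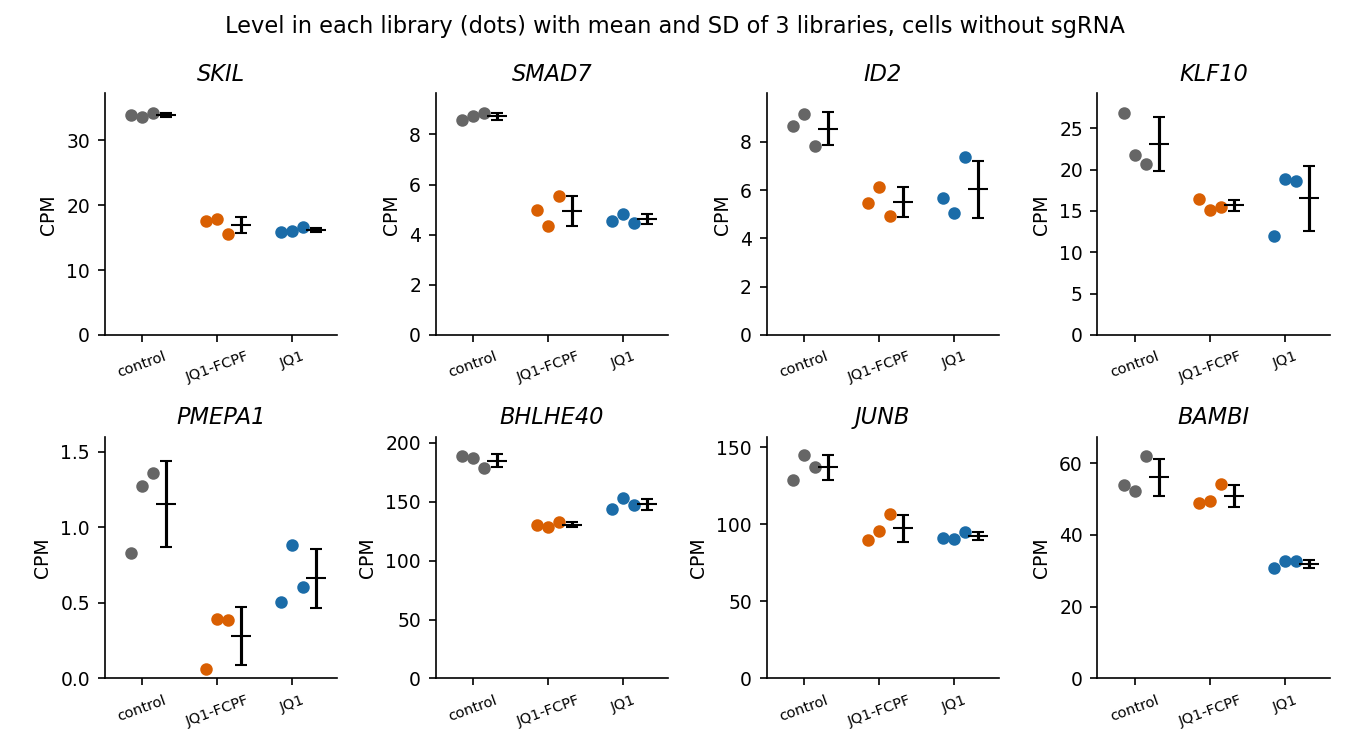
Level (CPM) of 8 genes in each library, with control in grey, JQ1-FCPF in orange and JQ1 in blue, all without sgRNA. Dots are single libraries and black bars the mean and SD of 3. SKIL, SMAD7, ID2, KLF10, PMEPA1, BHLHE40 and JUNB are lower in all 3 JQ1-FCPF libraries than in all 3 control libraries, whereas BAMBI is lower in the JQ1 libraries.

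Other genes of a list for TGF-beta signalling and SMAD feedback lay lower as well, though none of them passed. In this pathway receptors phosphorylate SMAD proteins, which switch on target genes and also their own inhibitors. Of 16 genes in the list, 15 were tested. SKIL was called, and 5 members, SKIL among them, were lower at an unadjusted p under 0.05 (33.3% of the list, 0.922% of all genes), against 0 higher. The list was chosen with earlier results of these data known, so these shares are a description. The same 5 did not overlap between the groups, where 3.51% of all genes were lower in this way. The median log2 change was -0.12, beside 0 over all genes, and 13 of the 15 had a value below 0. The count of 5 was the same when any single library was left out, and it was 4 with the stricter filter on low counts. For JQ1 against the same control the median was -0.33, with 4 members called lower (6.23% of all genes) and 2 higher (6.07%). The direct comparison of the compounds had a median of 0.04, with 1 member called higher in JQ1-FCPF (4.11% of all genes) and 2 lower (3.69%).

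SMAD7, the inhibitory SMAD that blocks the receptor, stood at 8.59, 8.73 and 8.86 CPM in the control and 4.99, 4.35 and 5.54 CPM in JQ1-FCPF. Every treated library was below every control library, which the naming rule given below requires. Its log2 fold change was -0.82 ± 0.16 SE and did not pass (edgeR adjusted p = 0.154). Over 14 alternatives this p ranged from 0.0126 to 1. It passed in 2 of them, DESeq2 (adjusted p = 0.0419) and the fit without the 2 libraries of the sgRNA groups that stand apart (adjusted p = 0.0126), an alternative added after the data were seen. With JQ1, SMAD7 was at 4.54, 4.84 and 4.47 CPM, and the compounds differed by a log2 value of 0.10 (95% interval -0.25 to 0.44).

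ID2, an inhibitor of basic helix-loop-helix factors, was at 8.65, 9.16 and 7.84 CPM in the control and 5.48, 6.13 and 4.92 CPM in JQ1-FCPF (log2 fold change -0.63, unadjusted p = 0.00356, edgeR adjusted p = 1). KLF10, a zinc finger repressor known as an early TGF-beta response gene, was at 26.8, 21.8 and 20.7 CPM against 16.4, 15.1 and 15.5 CPM (log2 fold change -0.56, unadjusted p = 0.0062, edgeR adjusted p = 1). For both genes the groups did not overlap, which for ID2 the naming rule given below requires. PMEPA1, a membrane protein that sequesters SMADs, was at the edge of detection, at 0.827, 1.27 and 1.36 CPM in the control and 0.0616, 0.396 and 0.385 CPM in JQ1-FCPF. It was below the level set for naming and is given because it completes the 5, after its values were seen. Its log2 fold change of -2.05 had a 95% interval of -3.02 to -1.09 (edgeR adjusted p = 0.592).

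The other 10 tested members showed no such separation. They included TGIF1 and SKI, co-repressors of SMADs, with log2 fold changes of -0.12 (95% interval -0.33 to 0.09) and -0.05 (-0.27 to 0.17). For the ubiquitin ligases SMURF1 and SMURF2 the values were -0.01 and 0.00, and for ID1 and ID3, targets of BMP signalling, 0.02 and -0.02. BAMBI, a decoy receptor, was at 54, 52.2 and 61.9 CPM in the control and 48.8, 49.4 and 54.2 CPM in JQ1-FCPF, with overlapping groups (log2 fold change -0.14). Under JQ1 it stood at 30.7, 32.6 and 32.7 CPM, and there the 2 compounds differed by a log2 value of 0.67 (95% interval 0.39 to 0.94, edgeR adjusted p = 0.00851), with all JQ1-FCPF libraries above all JQ1 libraries. This adjusted p was 0.0511 without JQ1 replicate 2 and 0.0526 without JQ1-FCPF replicate 3. ID3 and the inhibitory SMAD6 differed the other way, at -0.58 and -0.44 (edgeR adjusted p = 0.0106 and 0.0309). For SMAD6 the call was lost when any of the 6 libraries was left out (adjusted p of 0.0594 to 0.114), and for ID3 it was lost in 2 of these 6 fits, without JQ1 replicate 2 and without JQ1-FCPF replicate 3 (0.0227 to 0.0666 over the 6).

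BHLHE40, a helix-loop-helix repressor linked to the circadian clock, had the smallest p after SKIL. It was at 189, 187 and 179 CPM in the control and 130, 129 and 133 CPM in JQ1-FCPF. The 3 treated libraries lay close together and below the control, where the naming rule given below requires groups that do not overlap. The change of 1.42-fold (log2 fold change -0.50 ± 0.09 SE) narrowly missed the threshold (edgeR adjusted p = 0.0727). Over 14 alternatives the adjusted p ranged from 7.15e-06 to 0.694, and it passed in 4, among them DESeq2 and the fit of only these 2 groups (adjusted p = 0.0214). With JQ1, BHLHE40 was at 144, 153 and 147 CPM, and the difference between the compounds had an interval of -0.36 to 0.00 on the log2 scale (edgeR adjusted p = 0.201).

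Immediate early genes, which answer within minutes to growth signals and stress, gave 0 calls among 33 tested and a median log2 change of -0.06. At an unadjusted p under 0.05, 4 were lower (0.922% of all genes) and 0 higher (0.915%). Of these, ID2 and KLF10 are also in the TGF-beta list. JUNB, an AP-1 subunit, was at 129, 145 and 137 CPM in the control and 89.6, 95.5 and 107 CPM in JQ1-FCPF, with no overlap (log2 fold change -0.49, unadjusted p = 0.00571, edgeR adjusted p = 1). In the fit without the 2 libraries of the sgRNA groups that stand apart its adjusted p was 0.00446. FOSB, named after its values were seen because it completes the 4, was at 5.28, 3.52 and 3.69 CPM in the control and 2.09, 3.56 and 2.62 CPM in JQ1-FCPF, with overlap (log2 fold change -0.60, edgeR adjusted p = 1). EGR1, a zinc finger factor induced by ERK signalling, stood at 328, 294 and 269 CPM in the control and 274, 320 and 322 CPM in JQ1-FCPF, which overlapped (log2 fold change 0.04, 95% interval -0.43 to 0.51).

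By a rule that filled each direction to 8 genes with the smallest unadjusted p (mean of at least 5 CPM, no overlap), the remaining lower genes were SAMD11, SEMA7A, ZBED10P and CMPK2. SEMA7A, a membrane-anchored semaphorin, was at 13.4, 11.3 and 13.4 CPM against 8.13, 8.44 and 8.15 CPM (log2 fold change -0.63, edgeR adjusted p = 0.582). SAMD11 was at 10.5, 7.68 and 9.03 against 4.06, 6.46 and 4.69 CPM (-0.84, edgeR adjusted p = 0.571). ZBED10P and CMPK2, a mitochondrial nucleotide kinase, had log2 fold changes of -0.33 and -0.64. Since the rule requires groups that do not overlap, separation is not a finding for any gene it named. This includes SKIL, BHLHE40, SMAD7, ID2 and the higher genes below.

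The 8 higher genes by the same rule had smaller changes and an edgeR adjusted p of 1 each. They were the histone genes H1-4 and H2BC18, ADGRV1, an adhesion receptor, ANKRD12, P3H3, GFOD1, LIN7C and NSRP1, a splicing regulator. Their log2 fold changes ran from 0.22 for NSRP1 to 0.68 for H2BC18. NSRP1 was at 80.6, 81.6 and 81.7 CPM in the control and 93.2, 101 and 90.1 CPM in JQ1-FCPF.

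Replication-dependent histone genes lay a little higher, without a call. Of 56 genes in the list 41 were tested. JQ1-FCPF was higher for 36 and lower for 5, with a median log2 change of 0.28 beside 0 over all genes. The split was 36 to 5 under each of the 3 scalings tried. At an unadjusted p under 0.05, 3 were higher (0.915% of all genes) and 0 lower, and 14 were higher without overlap (3.95% of all genes) against 1 lower. H1-4, a linker histone, was at 11.3, 11.6 and 9.43 CPM in the control and 15, 15 and 19.2 CPM in JQ1-FCPF (log2 fold change 0.60 ± 0.16 SE, unadjusted p = 0.000959, edgeR adjusted p = 1). H1-5 was at 1.02, 1.41 and 1.02 against 1.72, 2.44 and 2.85 CPM, and H2BC18 at 3.82, 5.21 and 4.88 against 5.91, 7.45 and 9 CPM. These transcripts come from near-identical copies and mostly lack poly(A) tails, and neither the library kit nor the treatment of reads that match several copies is given, so the values of single histone genes are uncertain. The median for JQ1 against the same control was 0.23, and the direct comparison of the compounds had a median of 0.00 with 0 of 41 called.

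Genes that commonly report BET inhibition gave 0 calls among 9 tested, and the 95% interval lay within 2-fold for all 9. Their median log2 change was 0.04. Without overlap 3 of the 9 were higher (3.95% of all genes) and 0 lower (3.51%). JQ1 against the same control gave only 1 call among the 9, with a median log2 change of 0.09. Whether JQ1-FCPF inhibited BET proteins was not tested. HEXIM1, the inhibitor of P-TEFb that BET inhibitors are known to raise, was at 120, 134 and 126 CPM in the control and 130, 126 and 134 CPM in JQ1-FCPF. The groups overlapped fully (log2 fold change 0.03, 95% interval -0.27 to 0.33). MYC was at 195, 189 and 206 CPM in the control and 197, 136 and 171 CPM in JQ1-FCPF, where replicate 1 was at the control level and replicate 2 the lowest. Its log2 fold change was -0.22 (95% interval -0.50 to 0.05, edgeR adjusted p = 1). With each library left out in turn, the MYC value ran from -0.35 to -0.09, so the lower end of the interval is not a firm bound. The compounds differed by a log2 value of 0.14 for MYC (edgeR adjusted p = 0.554). TXNIP, a thioredoxin-binding protein, was at 77.2, 73.4 and 81.2 against 79.1, 87.9 and 71.1 CPM (log2 fold change 0.04). ZCCHC24 was the 1 marker with an unadjusted p under 0.05, at 19.9, 16.5 and 17.9 against 20.5, 22.9 and 20.6 CPM (log2 fold change 0.24, edgeR adjusted p = 1). SERPINI1 and the histone genes H2BC21, H2BC12, H2BC5 and H2BC4 had log2 fold changes of -0.10, 0.11, -0.05, 0.14 and 0.26.

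**Figure D3:**
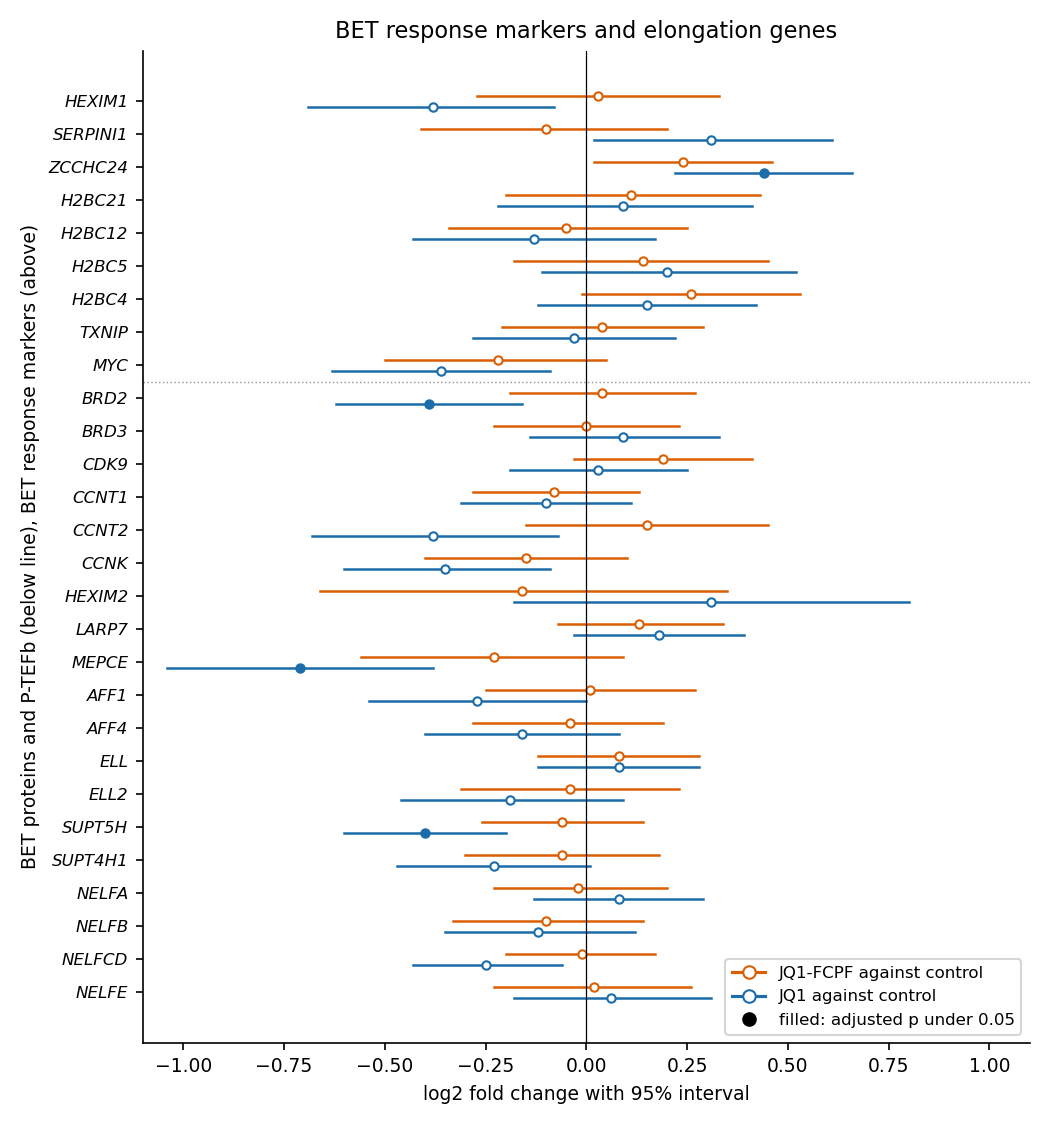
Log2 fold change (dots) with 95% interval (lines) of 9 BET response markers (above the dotted line) and of other genes of BET proteins and P-TEFb (below), for JQ1-FCPF against control in orange and JQ1 against control in blue, all without sgRNA. The 2 sets of values share the control libraries. Filled dots have an adjusted p under 0.05: there are 0 for JQ1-FCPF, and for JQ1 they are ZCCHC24, BRD2, MEPCE and SUPT5H.

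The targets of the compound and the elongation machinery did not change past the test either. Of 21 tested genes for BET proteins, P-TEFb and its partners 0 were called and 0 had an unadjusted p under 0.05, and all 21 intervals lay within 2-fold. BRD2 was at 316, 296 and 327 CPM in the control and 302, 325 and 339 CPM in JQ1-FCPF. The groups overlapped, with a log2 fold change of 0.04. BRD3 was at 0.00 and CDK9, the kinase of P-TEFb, at 0.19. The widest departure in the list was MEPCE, the capping enzyme of 7SK RNA, at -0.23 (95% interval -0.56 to 0.09).

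Of the other lists, covering stress, metabolism, cell cycle and lineage, 0 had a called member. Heat shock genes held 3 of 24 with an unadjusted p under 0.05, all lower. Of all genes, 0.922% were lower at that level, which is the background for the counts of this and the next lists. HSPA8, the constitutive HSC70 chaperone, was at 1194, 919 and 1191 CPM in the control and 1045, 587 and 724 CPM in JQ1-FCPF, where replicate 1 lay among the control libraries (log2 fold change -0.49, edgeR adjusted p = 1). With each library left out in turn, the HSPA8 value ran from -0.74 to -0.32. The other 2 were those of the co-chaperones BAG3 (-0.22) and DNAJB4 (-0.31). Among 33 ATF4 and unfolded protein genes 3 were lower at that level, DNAJB9, HERPUD1 and SLC7A1, with values of -0.35, -0.24 and -0.24. Of 31 cholesterol and fatty acid genes 2 were, among them IDI1, an isomerase of the mevalonate pathway, at -0.22. TFRC, the transferrin receptor, had a log2 fold change of -0.28, IRF1 of -0.36, TP53I3 of -0.29 and NFE2L2 of -0.24. GATA2 was at 0.19 and ITGA2B, a megakaryocytic integrin chain, at 0.62 with 4.39, 2.89 and 4.03 CPM in the control against 5.85, 6.86 and 4.69 CPM. Each of these genes had an edgeR adjusted p of 1. The 40 ribosome biogenesis and MYC target genes had a median log2 change of -0.01, 35 G2 and mitosis genes of 0.00, and 75 ribosomal protein genes of 0.05. All 40, 34 of 35 and all 75 had intervals within 2-fold. Several lists leaned to 1 side by small amounts: 20 of 24 heat shock genes, 27 of 33 ATF4 and unfolded protein genes, 27 of 31 cholesterol genes and 32 of 39 G1 and S phase genes had values below 0, beside 7655 of all 15517 genes, with medians of -0.08 to -0.06. The 15 tested snoRNA host genes all had values above 0 (median 0.09). Under the 3 scalings the count changed for 2 of these lists, to 21 of 24 heat shock genes with DESeq2 size factors and 26 of 33 ATF4 genes with library totals.

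**Figure D4:**
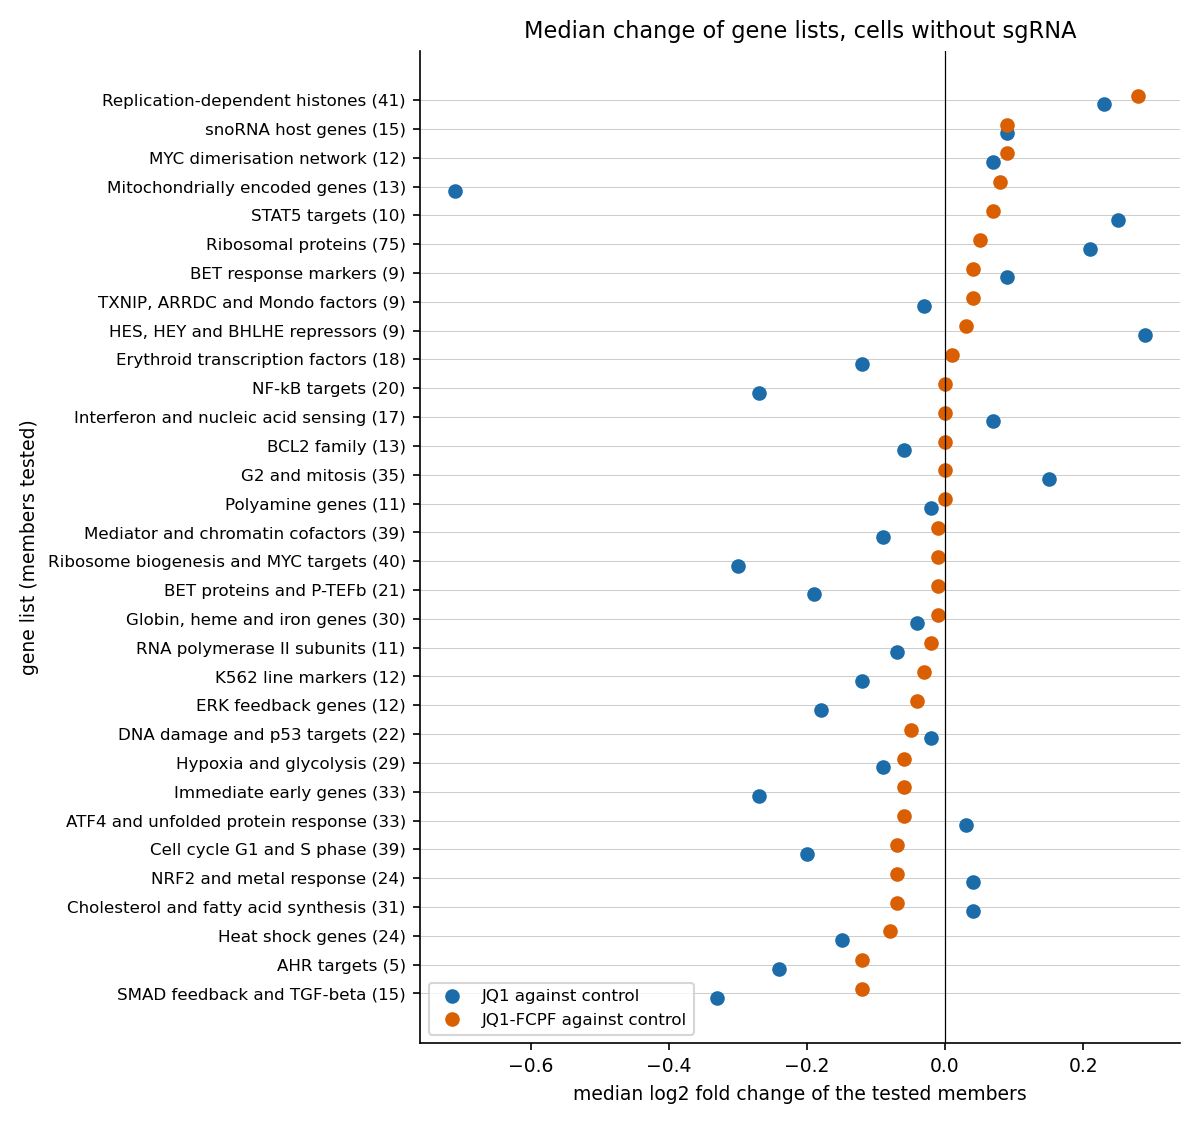
Median log2 fold change of the tested members of each gene list with at least 5 of them (number in parentheses), for JQ1-FCPF against control in orange and JQ1 against control in blue, all without sgRNA. The 2 sets of medians share the control libraries. The medians for JQ1-FCPF lie between -0.12 (TGF-beta and AHR lists) and 0.28 (histones), whereas those for JQ1 reach from -0.71 (mitochondrially encoded genes) to 0.29 (HES, HEY and BHLHE repressors).

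JQ1-FCPF was next compared directly with JQ1, which differs by the attached group that pairs with the FCPF tag. Both were given at 1 µM for 1 h to cells with Cas9FCPF and without sgRNA, and this was the 1 pair of compounds compared. The compounds differed in 1210 genes (7.8% of 15517), with JQ1-FCPF higher in 638 (4.11%) and lower in 572 (3.69%), and 178 of them by over 2-fold. The count was 280, 76 and 370 without JQ1 replicates 1, 2 and 3, and 973, 302 and 136 without JQ1-FCPF replicates 1, 2 and 3. Against the control, JQ1 gave 1908 calls (12.3%), 942 higher (6.07%) and 966 lower (6.23%). That count was 857, 701 and 696 without JQ1 replicates 1, 2 and 3, and 950 and 430 without control replicates 1 and 3. The 95% interval of the difference between the compounds lay within 1.5-fold for 7935 of 10492 genes with a mean of at least 5 CPM (75.6%).

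A panel of 20 JQ1-responsive genes was taken from other libraries, as the 10 genes with the smallest p in each direction in JQ1 with sgRNA against control, so the control libraries took part in the choice and the 6 libraries compared below did not. In this choice compound, Cas9FCPF, sgRNA and transfection cannot be told apart, and the name JQ1-responsive is used in that sense. Of the 20 panel genes, 15 differed between JQ1-FCPF and JQ1 without sgRNA, each with JQ1-FCPF on the side away from the JQ1 response. They were 6 of the 10 lower genes (JQ1-FCPF higher, 4.11% of all genes) and 9 of the 10 higher genes (JQ1-FCPF lower, 3.69% of all genes). Among the lower genes NFYA, a subunit of the CCAAT-binding factor, was at 59, 55.4 and 53 CPM in JQ1-FCPF and 32.6, 37 and 33.9 CPM in JQ1 (log2 difference 0.69, 95% interval 0.46 to 0.93, edgeR adjusted p = 0.00331), with the control at 51.7 to 68.9 CPM. NR2F2, an orphan nuclear receptor, BAMBI, SLC10A4, CYP26A1, which degrades retinoic acid, and LPAR5, a lysophosphatidic acid receptor, differed by 0.63 to 0.67. Among the higher genes AIF1L was at 14, 14 and 14.6 CPM in JQ1-FCPF and 33, 37.3 and 30.1 CPM in JQ1 (log2 difference -1.24, edgeR adjusted p = 0.00331). ZC3H6, TAFA2 and OPTN, an autophagy receptor, differed by -1.15, -0.99 and -0.90. BCAN-AS1, an antisense RNA, ESRRB, WIPI1, PYGL, the liver glycogen phosphorylase, and DDIT3, the stress factor CHOP, differed by -0.60 to -0.76.

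Against control, JQ1-FCPF had a median log2 change of -0.15 in the 10 lower genes (-0.99 to -0.01) and 0.20 in the 10 higher genes (0.06 to 0.46). Without overlap and in the direction of the JQ1 response were 2 of the 10 lower genes, SKIL and BHLHE40. So were 5 of the 10 higher genes, TAFA2, WIPI1, ADGRV1, AIF1L and PYGL. Of all genes, 3.51% were lower and 3.95% higher without overlap. As the control libraries helped to choose the panel, these values are a description.

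The remaining 5 of the panel did not differ past the test. SKIL and BHLHE40 are described above, and HES1, a Notch pathway repressor, had a difference of 0.07 (95% interval -0.18 to 0.33). ZFP36L2, which destabilises AU-rich transcripts, and ADGRV1 had intervals that left out 0, at 0.08 to 0.47 and -0.78 to -0.11 (edgeR adjusted p = 0.0712 and 0.0889). The 15 calls did not all survive leaving out 1 library. Without JQ1 replicate 2, 9 were lost (BAMBI, CYP26A1, DDIT3, ESRRB, LPAR5, OPTN, PYGL, TAFA2 and WIPI1), with adjusted p up to 0.115. Without JQ1-FCPF replicate 3, 8 were lost (BAMBI, CYP26A1, DDIT3, LPAR5, PYGL, SLC10A4, TAFA2 and WIPI1), with adjusted p up to 0.081. TAFA2 was also lost without JQ1 replicate 1, JQ1 replicate 3 and JQ1-FCPF replicate 1 (up to 0.0755), SLC10A4 without JQ1 replicate 1 and WIPI1 without JQ1-FCPF replicate 2 (0.0724). In these fits every one of the 15 kept its direction, with log2 differences of 0.51 to 1.31 in size.

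**Figure D5:**
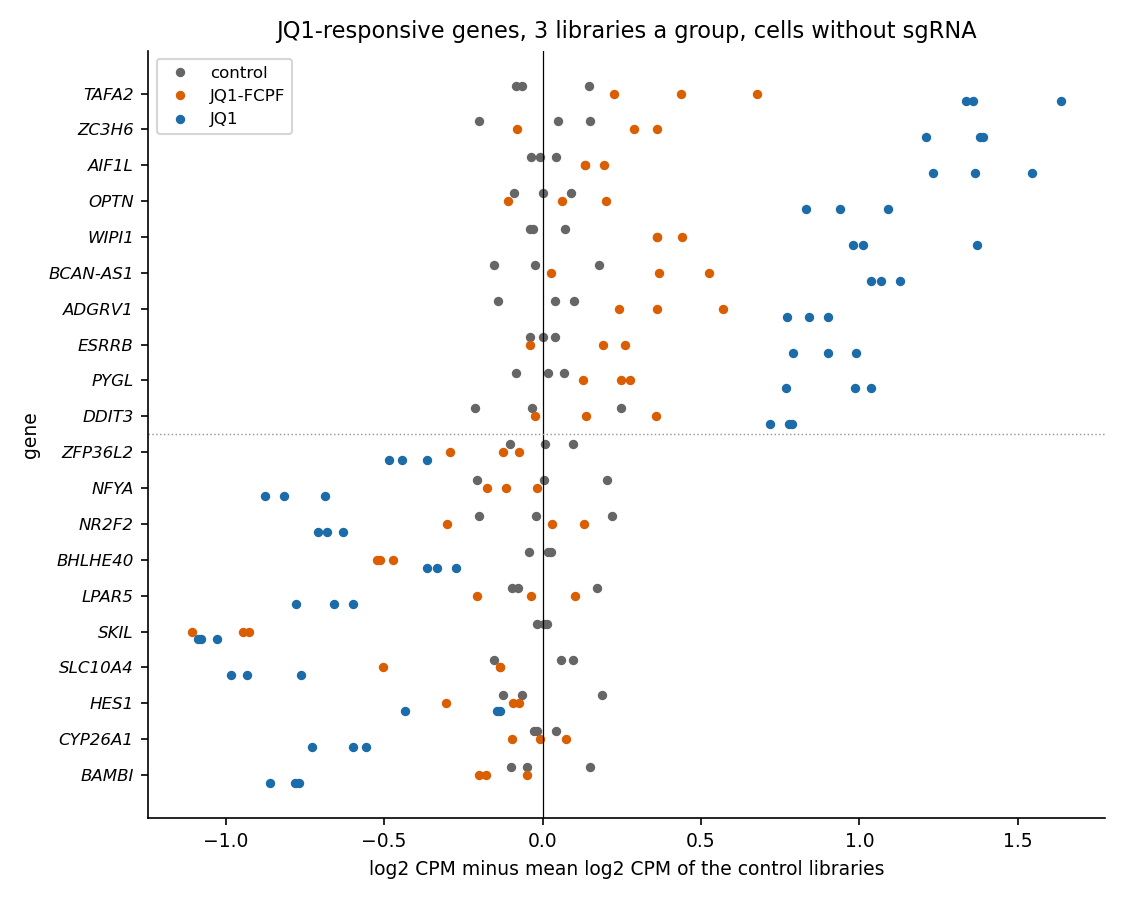
Log2 CPM of the 20 panel genes in each library relative to the mean of the control libraries, with control in grey, JQ1-FCPF in orange and JQ1 in blue, all without sgRNA. Genes below the dotted line were chosen as lower, and those above it as higher, in JQ1 with sgRNA against control. JQ1-FCPF dots overlap the control for 8 of the 10 lower and 5 of the 10 higher genes, and lie beside or beyond JQ1 for SKIL and BHLHE40. For HES1 they overlap the control and also differ little from JQ1 (log2 difference 0.07).

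The genes with the smallest p between the compounds were, with JQ1-FCPF lower, SOCS3, SRGN, SAT1, UBE2L6, AIF1L, ASS1, MUC4 and GSEC, and with JQ1-FCPF higher PHACTR1, PFAS, SEPTIN5, TNPO2, STAG1, ZC3H4, XRCC2 and CIC. ASS1, argininosuccinate synthase, was at 17.2, 15.8 and 16.6 CPM in JQ1-FCPF and 46.7, 52.4 and 54.5 CPM in JQ1, a 3.09-fold difference (edgeR adjusted p = 0.00392), with the control at 12 to 15.6 CPM. SOCS3, the feedback inhibitor of cytokine receptors, was at 32.3, 31.5 and 30.7 against 51.3, 52.8 and 61.4 CPM (1.75-fold, edgeR adjusted p = 0.00281), with the control at 26 to 34.1 CPM. STAG1, a cohesin subunit, was at 12.7, 9.76 and 11.8 against 6.12, 6.02 and 5.46 CPM (1.95-fold, edgeR adjusted p = 0.00292), with the control at 11.6 to 13.3 CPM. PFAS, an enzyme of purine synthesis, was at 141, 125 and 139 against 91.1, 88.3 and 85.2 CPM (1.53-fold, edgeR adjusted p = 0.00281). For SOCS3, STAG1 and PFAS the JQ1-FCPF libraries overlapped the control. All 16 genes kept their call when any single library was left out, with adjusted p of at most 0.0306. They were picked for the smallest p in the same libraries, so this is a description.

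By list, counts of called members stand beside 4.11% of all genes higher and 3.69% lower in JQ1-FCPF. The compounds differed in 10 of 40 ribosome biogenesis and MYC target genes, all higher in JQ1-FCPF (median log2 difference 0.24, beside 0 over all genes). Of 39 genes of G1 and S phase 9 were higher and 1 lower, and of 35 genes of G2 and mitosis 0 were higher and 3 lower. ATF4 and unfolded protein genes were lower in 6 of 33 and higher in 1, and cholesterol and fatty acid genes lower in 5 of 31 and higher in 1. NF-kB targets were higher in 5 of 20 and lower in 2. Mitochondrially encoded genes were higher in 3 of 13 with a median of 0.80. The mitochondrial share of counts was 2.79%, 5.22% and 5.7% in JQ1-FCPF and 2.31%, 2.34% and 3.22% in JQ1, and its part in the other differences was not tested.

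Immediate early genes differed in 4 of 33, beside 7.8% of all genes, with 3 higher and 1 lower in JQ1-FCPF. They are named here after their values were seen. EGR1 was at 108, 123 and 123 CPM with JQ1 and, as given above, 274 to 322 CPM with JQ1-FCPF (log2 difference 1.37, edgeR adjusted p = 0.00407). FOS was at 17.9, 22.9 and 24.8 CPM in JQ1-FCPF and 10.8, 8.66 and 9.85 CPM in JQ1 (1.16, edgeR adjusted p = 0.0165). DUSP1, a phosphatase that switches off MAP kinases, differed by 0.77 (edgeR adjusted p = 0.0306), and ID3 was the fourth, lower in JQ1-FCPF. EGR1 kept its call without any single library, whereas FOS lost it in 5 and DUSP1 in all 6 of these fits, with adjusted p up to 0.0883 and 0.124. In the BET and P-TEFb list 4 of 21 were higher in JQ1-FCPF (4.11% of all genes) and 0 lower, among them BRD2, SUPT5H and CCNT2, by log2 values of 0.43, 0.34 and 0.53 (edgeR adjusted p = 0.0229, 0.0349 and 0.0345). The call was lost when any 1 of the 6 libraries was left out for SUPT5H and CCNT2, and in 5 of 6 fits for BRD2, with adjusted p up to 0.145. HEXIM1 differed by 0.42 with an interval of 0.11 to 0.72 (edgeR adjusted p = 0.0823), and was at 93.7, 93.6 and 105 CPM in JQ1.

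Adding sgRNA to JQ1-FCPF changed 970 genes (6.25%) relative to JQ1-FCPF without sgRNA. SKIL was not among them, with a log2 difference of -0.02 (95% interval -0.28 to 0.24, edgeR adjusted p = 0.956), whereas BHLHE40 fell from 130, 129 and 133 CPM to 45.1, 52.9 and 43.5 CPM (2.77-fold, edgeR adjusted p = 1.38e-09). The count of 970 was 1129, 487 and 428 without replicates 1, 2 and 3 of JQ1-FCPF without sgRNA, and 1600 without the 2 libraries that stand apart.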

How the data were processed

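RNA from K562 cells was sequenced in 15 libraries, 5 groups of 3, and the authors deposited raw read counts per gene for each library. Of 57500 Ensembl identifiers, 56410 had a symbol in a table of gene names, and GENCODE release 29 (GRCh38) filled in others. The files state no build, but 96.3% of the 56898 identifiers found in that release have the same start and end there. For the aligner, counter, strand use and library kit, nothing was given in the sources consulted. Totals of 12625669 to 17544518 counts per library mean that 1 CPM stands for about 12.6 to 17.5 counts before TMM scaling, which limits genes under 5 CPM.

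Counts were fitted with edgeR 4.0.16 in R 4.3.3 (filterByExpr, 15517 genes, TMM, quasi-likelihood test, all 15 libraries with 1 mean a group, 10 residual degrees of freedom), and p was adjusted by Benjamini-Hochberg over all genes tested, with calls at 0.05. Intervals are at 95%. CPM uses TMM-scaled totals. The script was tested on simulated data. Named genes were the BET response markers and BET and P-TEFb genes, up to 12 called genes in each direction filled to 8 by unadjusted p (at least 5 CPM, no overlap), up to 3 per gene list by p, the panel of 20, and 8 per direction between the compounds. A few named genes are not reported here. Exceptions are marked in the text as chosen after their values were seen. The members and the 37 gene lists were chosen with earlier results of these data known. Alternatives were DESeq2 1.42.0, other scalings and filters, the 2 groups alone, a replicate block and each library left out.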

Additional observations from a re-analysis of the deposited data

How the results depend on the processing

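SKIL was the called gene in every one of 14 alternatives. The count of called genes for JQ1-FCPF against control was 1 to 1 when each library in turn was left out, 3 with DESeq2 (SKIL, BHLHE40, SMAD7), 2 with these 2 groups alone, 2 with a stricter filter (SKIL and BHLHE40 in both) and 4 without the 2 libraries of the sgRNA groups that stand apart (SKIL, BHLHE40, SMAD7, JUNB), an alternative chosen after seeing the data. Leaving out each library gave 430 to 1338 calls for JQ1 against control, 76 to 973 for JQ1-FCPF against JQ1 and 428 to 1129 for adding sgRNA. With only the 2 groups of each comparison these counts were 4521, 2959 and 351, and without the 2 libraries they were 4234, 3554 and 1600. The cause of these shifts was not tested.

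Deviations of JQ1-FCPF and control libraries with the same replicate number correlated at -0.34, -0.13 and -0.18 over 10495 genes. For libraries with different numbers the values ran from -0.27 to 0.36. Since deviations within a group of 3 are not independent, these values cannot settle whether replicate numbers paired libraries in the experiment. With a replicate block the counts were 1, 1739, 1122 and 833.

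A few log2 values near 0 changed sign when 1 library was left out, and BRD3, at 0.00 against control, ran from -0.10 to 0.14. Against control the others were HEXIM1 (-0.01 to 0.07), below 0 without control replicate 1, H2BC12 (-0.13 to 0.03), above 0 without control replicate 2, and TXNIP (-0.04 to 0.11), below 0 without JQ1-FCPF replicate 2. Between the compounds they were TXNIP (-0.02 to 0.14, and -0.01 without JQ1-FCPF replicate 2), KLF10 (-0.26 to 0.04, and 0.03 without JQ1 replicate 3), HES1 (-0.02 to 0.15) and ID2 (-0.24 to 0.04). Against control only SKIL had a call to lose, and it kept this call in all 14 alternatives. There 7 values of other named genes gained a call. Between the compounds 60 values, each of 1 gene under 1 alternative, lost a call and 10 gained one. No scaling moved the median of all genes by over 0.1 on the log2 scale.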
